A study of Mus musculus with 1824 samples.

Results

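This section describes 10 genes of bone morphogenetic protein (BMP) signalling: the ligand genes *Bmp2*, *Bmp4* and *Bmp7*, and 7 genes that respond to the signal, *Id1*, *Id2*, *Id3*, *Smad6*, *Smad7*, *Msx1* and *Msx2*. They were chosen by name and by no cut-off on their values, but with earlier results of these data known. All 10 were found among the 55487 genes of the count table. Single cells of mouse chimaeras were profiled by Smart-seq2, which reads whole transcripts of cells sorted into plates, and were collected at embryonic day 7.5 (E7.5) or 8.5 (E8.5). Every embryo was a chimaera of wild-type C57BL/6J host cells and *Tet*-TKO embryonic stem cells, which lack *Tet1*, *Tet2* and *Tet3* and carry an H2B-tdTomato label, and the embryos were carried by CD1 recipients. The label CD1 is the strain given for every cell. The paper describes sorting with KDR and CD41 antibodies for cells in which DNA methylation was also measured. It does not state whether every plate used here was sorted so. Neither the genotype nor the sort gate is given for a single cell, so both genotypes were analysed together. A share of cells can thus reflect the sort and is not read as a property of the embryo. The 11 E7.5 plates hold 4 embryos named by number (1, 2, 4 and 5), each on 1 plate, and 7 plates with no animal name. The 8 E8.5 plates carry no animal name and counted as 1 sample, so no test was made between stages.

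BMPs are secreted ligands of the TGF-β family that bind paired type I and type II receptors, which phosphorylate SMAD1, SMAD5 and SMAD9. These enter the nucleus with SMAD4 and induce *Id1*, *Id2* and *Id3*, inhibitors of basic helix-loop-helix factors, the *Msx1* and *Msx2* homeobox genes, and the inhibitory Smads *Smad6* and *Smad7*, which damp the signal. In the gastrulating mouse embryo, BMP4 from the extra-embryonic ectoderm acts on the epiblast, and BMP signalling is required for extra-embryonic mesoderm, allantois and primordial germ cells.

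The promoters of *Bmp4*, *Smad6* and *Msx1* are shown because these 3 genes stood high in one cell class described here and their windows before the RefSeq start held no annotated exon. RefSeq promoter windows (build GRCm38.p6) were found for 6 of the 10 members: *Bmp4*, *Id2*, *Id3*, *Msx1*, *Msx2* and *Smad6*. Each run is the 250 bases before the start, 5′ to 3′ on the gene's strand, and capitals mark GTCT or its reverse complement AGAC, the short Smad-binding element. The windows are chr14:46390670-46390919 for *Bmp4*, chr9:64022060-64022309 for *Smad6* and chr5:37824586-37824835 for *Msx1*, all on the minus strand.
Bmp4: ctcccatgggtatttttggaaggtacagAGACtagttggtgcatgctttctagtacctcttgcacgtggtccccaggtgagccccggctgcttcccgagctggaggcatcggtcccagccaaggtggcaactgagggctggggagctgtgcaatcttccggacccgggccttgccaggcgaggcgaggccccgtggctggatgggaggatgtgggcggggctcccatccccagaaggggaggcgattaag
Smad6: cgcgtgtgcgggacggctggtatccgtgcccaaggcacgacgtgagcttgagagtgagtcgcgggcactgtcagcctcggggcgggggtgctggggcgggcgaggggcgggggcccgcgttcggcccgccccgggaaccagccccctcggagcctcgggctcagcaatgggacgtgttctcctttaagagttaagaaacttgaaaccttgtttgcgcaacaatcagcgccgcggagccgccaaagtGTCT
Msx1: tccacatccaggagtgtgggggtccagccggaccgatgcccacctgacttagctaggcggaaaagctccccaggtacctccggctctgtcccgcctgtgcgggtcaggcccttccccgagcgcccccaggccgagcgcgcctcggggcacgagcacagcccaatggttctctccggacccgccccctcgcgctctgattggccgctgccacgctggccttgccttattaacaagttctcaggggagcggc

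Of the 3 windows, those of *Bmp4* and *Smad6* held 1 GTCT or AGAC each and that of *Msx1* held none. The same letters were in 82.9% of 32851 RefSeq windows of this length, so a match is common. The GC-rich element GGCGCC, which is its own reverse complement, was in 9.59% of all windows and among the 6 members only in that of *Id2*, once. The 3 printed windows were rich in G and C, at 63.2% in *Bmp4*, 66.8% in *Smad6* and 68% in *Msx1*, and held 11, 27 and 20 CpG dinucleotides. *Bmp4* overlaps the antisense genes *Gm15217* and *Gm15222*, and since Smart-seq2 does not mark strand, reads of these genes cannot be told apart from its own.

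After removal of wells with under 100000 reads, 1649 of 1824 cells were kept, 57.97% of them from E7.5 and 42.03% from E8.5. The median depth per plate ran from 224956 to 1699480 reads. Levels are pooled over the cells of a group and given in CPM, the share of all reads that fell on the gene, scaled to the usual counts-per-million unit. Smart-seq2 reads are not independent molecules, so the exact Poisson and binomial intervals (95%) given here cover counting error only. Cells were placed in exclusive classes by 4 lineage markers at 10 CPM or more: *Elf5*+ (trophoblast stem cells and extra-embryonic ectoderm), then *Hand1*+ (extra-embryonic and lateral mesoderm, also trophoblast), then *Kdr*+ (haemato-endothelial mesoderm), then *Pou5f1*-only (epiblast and primitive streak). At E7.5 these held 10.15%, 25.63%, 25.42% and 26.99% of the cells, and 11.82% had no marker. At E8.5 *Elf5*+ cells numbered 3, *Hand1*+ cells 97 and *Pou5f1*-only cells 9, while 41.41% of cells were *Kdr*+ and 42.86% had no marker.

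Other markers were compared with the class names. At E7.5 all 5 of 5 listed markers reached 10 CPM in *Elf5*+, *Kdr*+ and *Pou5f1*-only cells, and 4 of 5 in *Hand1*+ cells, where *Pitx1* was at 7.70 CPM. Each list includes the gene that defines its class, which reached 10 CPM by selection. *Hand1*+ cells also had 5 of 5 *Pou5f1*-only markers and 4 of 5 *Kdr*+ markers at 10 CPM, so these counts do not single out that class. The 3 *Elf5*+ cells of E8.5 had 2 of 5, with *Eomes* at 0, and 4 of 4 surface ectoderm markers at 2463 CPM in sum, which goes against the class name, so they are not described as a class. The *Hand1*+ cells without *Kdr* (60 cells) also carried the *Pou5f1*-only markers, summed to 738.05 CPM against 112.1 CPM in those with *Kdr*. *Elf5*+ cells, placed first, had *Hand1* at 74.3 CPM, while giant cell markers (*Prl3d1*, *Prl2c2*, *Hsd3b6*) summed to 0.0353 CPM there and 0.139 CPM in *Hand1*+ cells, with *Prl3d1* at 0 and *Prl2c2* at 0, respectively. The 5 erythroid markers summed to 2911 CPM in *Kdr*+ cells and 6.31 CPM in *Hand1*+ cells. Their part in the levels of the 10 genes in *Kdr*+ cells was not tested.

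Per length of transcript and pooled over all cells of a stage, the Id genes were the most abundant members at both stages. For *Id2* this did not hold on every E7.5 plate. On the plates of embryos 1 and 2 it was at 40.6 and 26.2 CPM, beside 58.9 and 41.2 CPM for the shorter *Bmp4*. At E7.5 *Id3* had 201.1 CPM per kb of exon, *Id1* 97.1, *Id2* 69.9, *Bmp4* 29.1, *Msx1* 28.2, *Msx2* 17.4, *Bmp7* 8.29, *Bmp2* 6.64, *Smad7* 4.10 and *Smad6* 2.81. At E8.5 *Id3* had 266.8 CPM per kb, *Id1* 130, *Id2* 66.8, *Msx1* 26.6, *Bmp4* 26.2, *Msx2* 8.10, *Bmp2* 6.09, *Bmp7* 4.70, *Smad6* 2.61 and *Smad7* 1.55. The plate ranges of all 9 neighbouring pairs in this order overlapped at either stage, so no neighbours were separated beyond their spread.

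The 19 plates differed widely in all 10 genes. Across the E7.5 plates *Bmp4* ran from 18.9 CPM on lane plate 1 through a median of 44.8 CPM to 133.2 CPM on lane plate 3, and across the E8.5 plates from 2.99 through 48.4 to 210.7 CPM. *Bmp2* stayed within 10.96 to 40.4 CPM at E7.5 and 11.3 to 44.2 CPM at E8.5, the narrowest ranges of the 3 ligands. Lane plate 1, on which 42 of 93 cells were *Kdr*+ and 45 had no marker but at least 1000 CPM of the embryonic globin *Hbb-bh1*, was the lowest E7.5 plate for 9 of the 10 genes, all but *Bmp2*. *Id2* had the widest E7.5 range in CPM, from 15.7 CPM on lane plate 1 to 835.8 CPM on the plate of embryo 4.

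**Figure D1:**
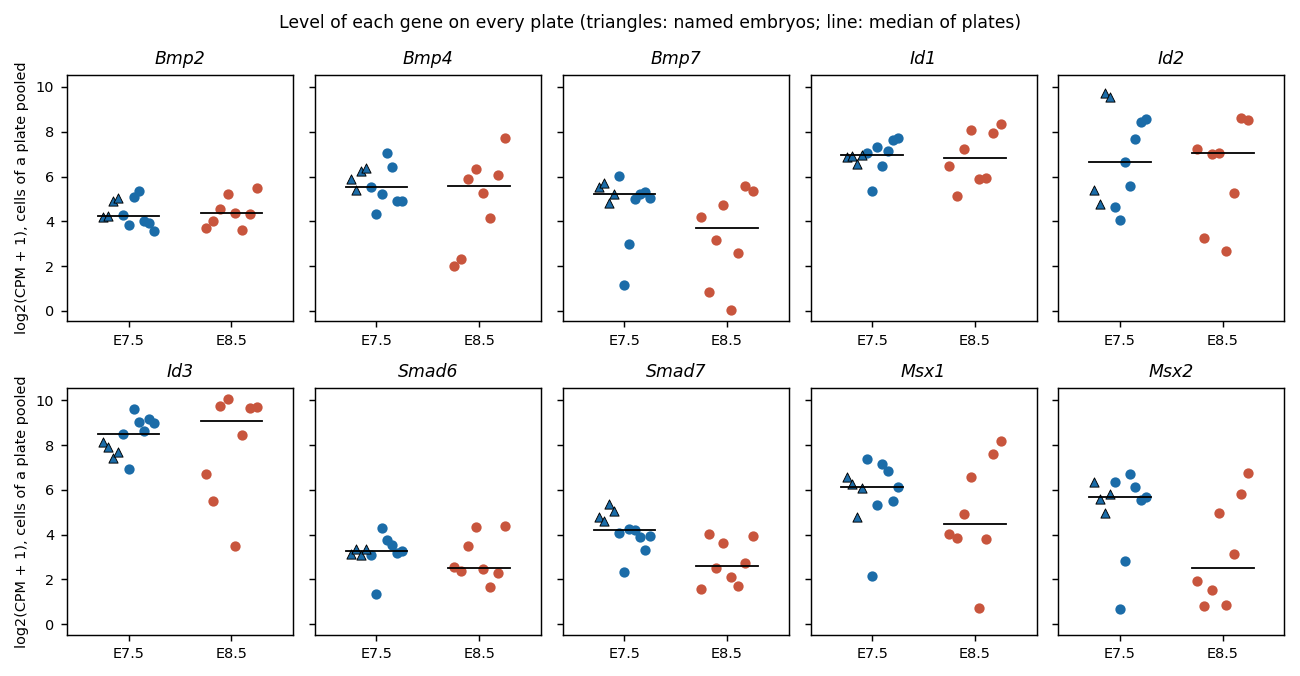
Level of each of the 10 genes on each plate, as log2(CPM + 1), with E7.5 plates in blue and E8.5 plates in red; each point is the pooled cells of 1 plate, triangles are the named embryos and horizontal lines are medians of plates. The E7.5 and E8.5 plates overlap in all 10 genes, and the 2 highest *Id2* points, at 835.8 and 754.01 CPM, are the plates of embryos 4 and 5.

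Each ligand had its own distribution over the classes. *Bmp4* at E7.5 was at 150.9 CPM (counting interval 149.3 to 152.5) in *Hand1*+ cells, 90.6 CPM (88.2 to 93.2) in *Elf5*+ cells, 49.6 CPM in *Kdr*+ cells and 5.59 CPM in *Pou5f1*-only cells. Over plates with at least 5 cells of the class, *Hand1*+ cells ran from 96.4 to 247.4 CPM (10 plates) and *Pou5f1*-only cells from 0.138 to 39.6 CPM (8 plates), which do not overlap. For this and the plate ranges of other members, the share of all genes that separate between classes was not counted. The cells with no marker and *Hbb-bh1* of at least 1000 CPM (47 cells), called erythroid-like here, held 2 *Bmp4* reads in all, or 0.0357 CPM (0.00432 to 0.129). *Bmp4* was thus high in both *Hand1*+ and *Elf5*+ cells and close to 0 in the erythroid-like cells.

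*Bmp2*, a ligand of visceral endoderm and early mesoderm, was highest at E7.5 in the 18 cells with no marker and *Ttr* of at least 1000 CPM, the visceral endoderm transthyretin gene, at 106.1 CPM. It stood at 34.7 CPM in *Hand1*+, 30.9 CPM in *Kdr*+, 6.93 CPM in *Pou5f1*-only and 0.635 CPM in *Elf5*+ cells. In *Elf5*+ cells *Bmp2* was thus close to 0 where *Bmp4* was high. *Bmp7*, which forms heterodimers with the other ligands, was the most even of the 3 in pooled level, at 55.6 CPM in *Hand1*+, 36.02 CPM in *Pou5f1*-only, 23.2 CPM in *Kdr*+ and 22.4 CPM in *Elf5*+ cells, with the plate ranges of *Hand1*+ (28.03 to 84.5 CPM) and *Pou5f1*-only cells (28.5 to 70.2 CPM) nearly the same. In *Kdr*+ cells the plates ran instead from 0.0178 CPM on lane plate 1 (1 read) and 1.59 CPM on lane plate 2 to 99.5 CPM on the chimera plate.

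The 3 Id genes did not share one order of classes. *Id2* was at 1562 CPM in *Elf5*+ cells against 118.7 CPM in *Hand1*+, 39.7 CPM in *Pou5f1*-only and 38.4 CPM in *Kdr*+ cells, and its *Elf5*+ plates (1417, 1741 and 3023 CPM) lay above all plates of each of those classes, the highest being 789.8 CPM in *Hand1*+ cells. The last of the *Elf5*+ values is that of lane plate 5, with 5 *Elf5*+ cells. *Id3* was instead lowest in *Elf5*+ cells at 53.9 CPM, with 287.3 CPM in *Pou5f1*-only, 449.3 CPM in *Kdr*+ and 482.1 CPM in *Hand1*+ cells. *Id1* was within 93.2 to 152.06 CPM in all 4 classes. Without the *Elf5*+ cells, *Id2* on the plates of embryos 4 and 5 went from 835.8 and 754.01 CPM to 102.03 and 101.98 CPM, still above the 40.6 and 26.2 CPM of embryos 1 and 2.

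The inhibitory Smads were the scarcest members. *Smad6*, which acts chiefly on BMP receptors, was at 17.8 CPM in *Hand1*+ cells and 2.79 CPM in *Pou5f1*-only cells, and the plate ranges (8.58 to 27.05 and 0.974 to 3.98 CPM) did not overlap. *Smad7*, which also inhibits activin and TGF-β receptors, was instead highest in *Elf5*+ cells at 49.1 CPM, with 24.3 CPM in *Hand1*+, 18.3 CPM in *Pou5f1*-only and 11.7 CPM in *Kdr*+ cells. Its *Elf5*+ plates (43.97 to 54.9 CPM, 3 plates) lay above all *Hand1*+ plates (9.64 to 33.1 CPM, 10 plates). Among those *Elf5*+ plates, lane plate 5 held 5 cells of the class.

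Both Msx genes were highest in *Hand1*+ cells at E7.5, and in *Elf5*+ cells they parted. *Msx1* was at 208.8 CPM in *Hand1*+, 62.9 CPM in *Kdr*+ and 32.6 CPM in *Pou5f1*-only cells but 2.91 CPM in *Elf5*+ cells. *Msx2* was at 147.01, 26.7 and 16.9 CPM in the same 3 classes and at 28.9 CPM in *Elf5*+ cells. The erythroid-like cells held no *Msx2* read, a count that allows up to 0.0535 CPM (3 reads).

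**Figure D2:**
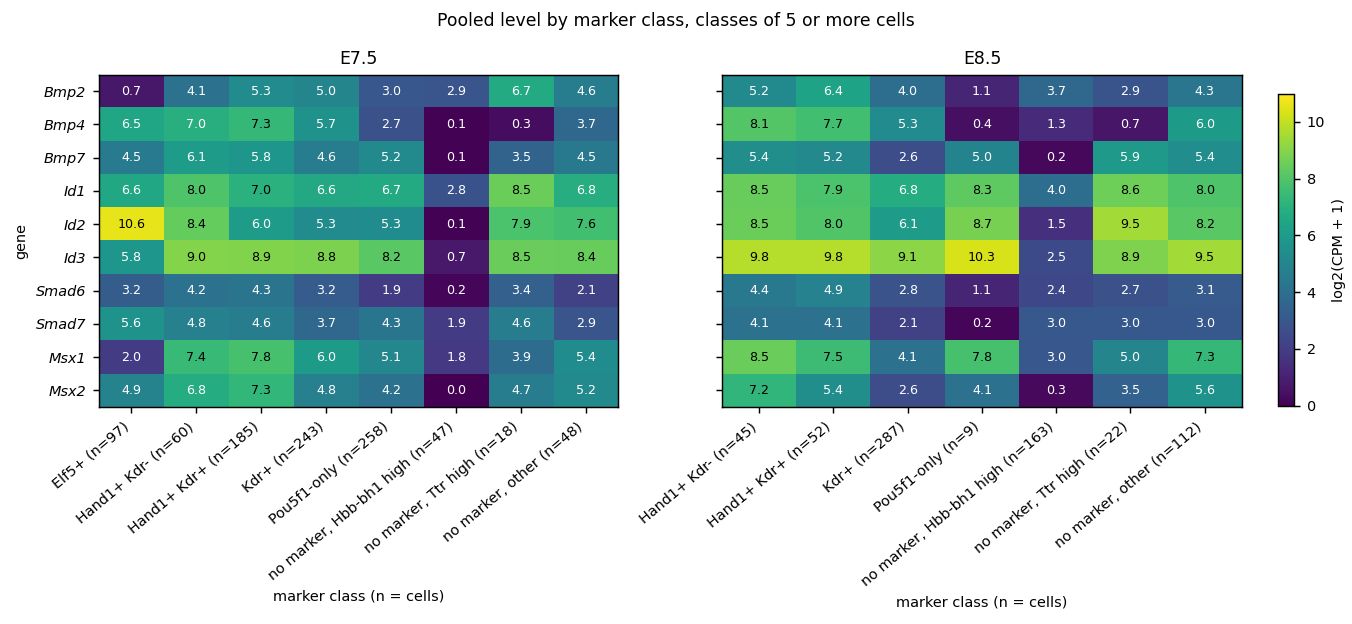
Heat map of the pooled level of each of the 10 genes, as log2(CPM + 1), with genes in rows and marker classes of 5 or more cells in columns at E7.5 (left) and E8.5 (right); *Hand1*+ cells are split by *Kdr*, cells with no marker by *Hbb-bh1* and *Ttr*, and numbers in the squares are the plotted values. Among the marker classes at E7.5, *Bmp4*, *Smad6*, *Msx1* and *Msx2* are highest in *Hand1*+ cells, and *Id2* (1562 CPM) and *Smad7* (49.1 CPM) in *Elf5*+ cells.

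To ask which differences held across animals, counts were summed per class in each of the 4 named embryos and compared with edgeR's quasi-likelihood test, with the embryo as a block. A gene was called at a false discovery rate of 1% over all genes tested and an absolute log2 fold change of at least 1. The p-values set the difference between classes against its variation from embryo to embryo over these 4 animals. The spread of levels between embryos is taken up by the block. *Hand1*+ cells (34, 34, 10 and 22 in embryos 1, 2, 4 and 5) were compared with *Pou5f1*-only cells (41, 44, 13 and 11). *Bmp4* and *Msx2* were higher and no member was lower, 2 of 10, where 0.318% of the 15074 genes tested were called higher and 0.418% lower. DESeq2 called 6 members higher (*Bmp2*, *Bmp4*, *Id1*, *Msx1*, *Msx2* and *Smad6*) and none lower, beside 3.18% of all genes higher and 4.06% lower. At an unadjusted p under 0.05, edgeR had 9 members higher, all but *Smad7*, and 0 lower, beside 9.32% and 9.51% of all genes. The median log2 fold change was 1.52 over the 10 members and 0.00417 over all genes.

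*Bmp4* was at 141.3, 109.4, 150.5 and 140.3 CPM in *Hand1*+ cells of embryos 1, 2, 4 and 5, against 1.98, 1.71, 0.138 and 4.11 CPM in their *Pou5f1*-only cells. All 4 embryos were alike in the first class, and the value of embryo 4 in the second rests on 1 read. The log2 fold change was 6.20 (SE 0.52, edgeR adjusted p = 0.00445). *Msx2* was at 154.05, 105.8, 138.4 and 146.96 CPM against 20.7, 6.15, 4.42 and 19.3 CPM, with the groups well apart, at a log2 fold change of 3.66 (SE 0.38, edgeR adjusted p = 0.00867). Without embryo 1, 2 or 5 no member was called, and without embryo 4 or with markers positive at 1 read *Bmp4* alone was. With no filter on low counts *Msx1* was called as well, and with no replicate block *Msx1* and *Id1* were. Over 15 alternatives the adjusted p of *Bmp4* ran from 2.75e-14 to 0.0410 and that of *Msx2* from 4.82e-27 to 0.0408, and their log2 fold changes stayed within 5.82 to 6.86 and 3.31 to 3.96.

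Other members did not overlap between the classes either, without passing the 1% threshold. *Msx1* was at 178.7, 145.5, 176.5 and 198.3 CPM in *Hand1*+ and 16.8, 22.6, 2.90 and 36.1 CPM in *Pou5f1*-only cells (log2 fold change 3.41, SE 0.54, edgeR adjusted p = 0.0272). *Smad6* was at 12.997, 19.2, 8.76 and 18.2 CPM against 3.72, 3.52, 1.52 and 2.80 CPM (2.36, SE 0.37, edgeR adjusted p = 0.0267). *Bmp2* was at 29.9, 30.3, 38.9 and 26.02 CPM against 5.86, 10.6, 14.8 and 3.55 CPM (2.00, SE 0.34, edgeR adjusted p = 0.0347). For these 3 genes and for *Id1*, at 187.3, 192.8, 183.7 and 131.6 CPM against 74.5, 67.1, 100 and 99.6 CPM (1.04, SE 0.20, edgeR adjusted p = 0.0453), every *Hand1*+ value lay above every *Pou5f1*-only value. With *Bmp4* and *Msx2* that made 6 of 10 members above and 0 below without overlap, where 7% of the genes tested lay above and 6.53% below in the same way.

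The remaining 4 members were closer between the classes. *Id3* was at 407.01, 308.3, 415.6 and 332.6 CPM against 199.6, 210.4, 312.2 and 292.4 CPM (log2 fold change 0.55, edgeR adjusted p = 0.103), so embryo 4 in the second class exceeded embryo 2 in the first. *Bmp7* (0.73, adjusted p = 0.263) and *Id2* (0.75, adjusted p = 0.214) were higher in *Hand1*+ cells in 3 of 4 embryos. In *Hand1*+ cells of embryo 5, 1 cell gave 68.98% of the *Id2* reads. *Smad7* was within 23.9 to 33.1 CPM in both classes except for 4.28 CPM in the *Pou5f1*-only cells of embryo 4 (0.66, adjusted p = 0.529).

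**Figure D3:**
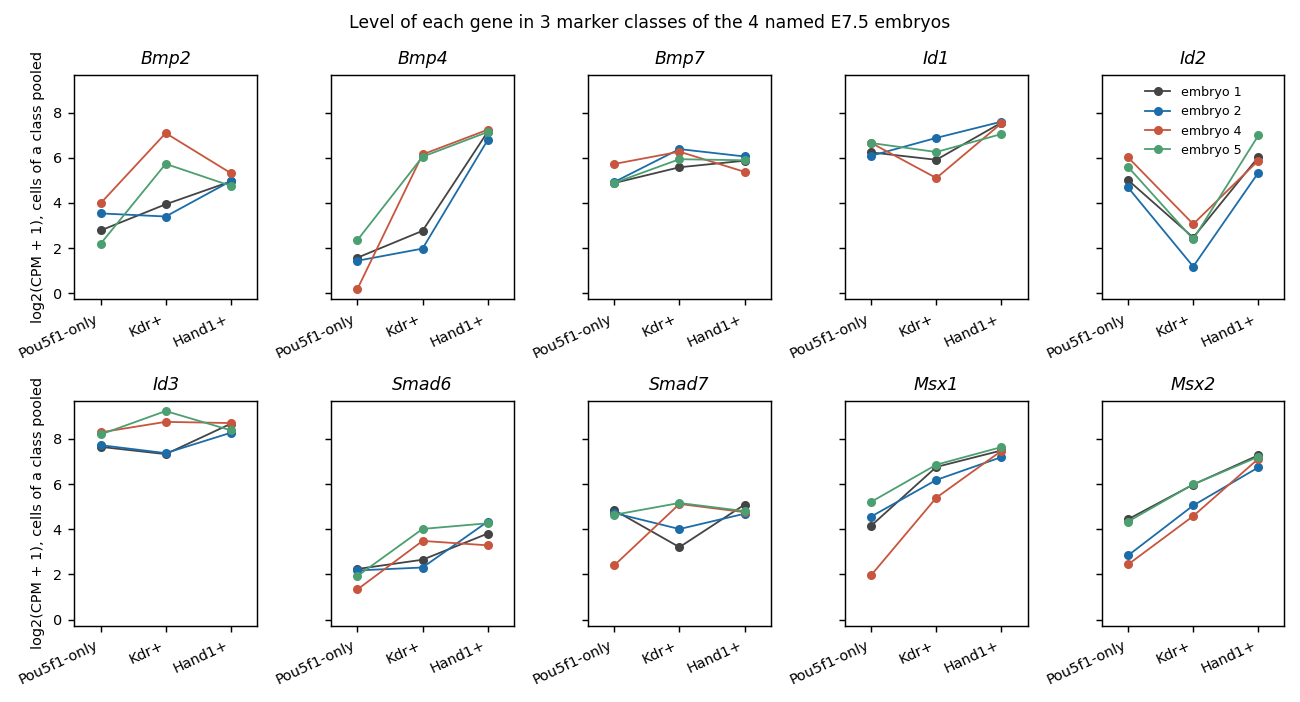
Level of each of the 10 genes in *Pou5f1*-only, *Kdr*+ and *Hand1*+ cells of embryos 1, 2, 4 and 5, as log2(CPM + 1); each point is the pooled cells of 1 class in 1 embryo, and lines join the classes of an embryo. *Bmp4* lies between 109.4 and 150.5 CPM in *Hand1*+ cells and between 0.138 and 4.11 CPM in *Pou5f1*-only cells, and in *Kdr*+ cells it splits into 2.94 and 5.80 CPM in embryos 2 and 1 and 65.1 and 69.9 CPM in embryos 5 and 4.

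*Kdr*+ cells without *Hand1* (13, 16, 7 and 6 per embryo) were compared with the same *Pou5f1*-only cells, so this comparison shares those libraries with the one above. *Id2* stood at 4.53, 1.27, 7.36 and 4.24 CPM in *Kdr*+ cells against 31.2, 24.7, 63.8 and 47.3 CPM, a separation in all 4 embryos with a log2 fold change of -3.35 (SE 0.40) that did not reach the threshold (edgeR adjusted p = 0.0400). With no filter on low counts edgeR called *Id2* lower. No member was called by edgeR in either direction, with 0.0234% of 12846 genes called higher and 0% lower. At an unadjusted p under 0.05, 5 members were higher and 1 lower, beside 5.68% and 8.16% of all genes. DESeq2 called 4 members higher (*Bmp2*, *Bmp4*, *Msx1* and *Msx2*) and *Id2* lower, beside 1.59% and 3.44% of all genes. The classes did not overlap over the 4 embryos in 3 members that lay above (*Msx1*, *Msx2* and *Smad6*) and in *Id2*, which lay below, beside 3.29% and 7.19% of all genes.

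The embryos were not alike in these cells. *Bmp4* was at 5.80 and 2.94 CPM in *Kdr*+ cells of embryos 1 and 2 but 69.9 and 65.1 CPM in embryos 4 and 5 (log2 fold change 3.18, SE 1.28, edgeR adjusted p = 0.347), and in embryo 1 all of its 55 reads came from 1 cell. *Bmp2* followed the same split, at 14.3, 9.54, 135.5 and 52.1 CPM, and 74.8% of its reads in embryo 4 came from 1 cell. *Id3* also did, at 159.5, 164.6, 431.3 and 601.5 CPM. The Msx genes did not: *Msx1* was at 107.2, 71.7, 41.1 and 115.04 CPM and *Msx2* at 62.1, 32.2, 22.9 and 62.4 CPM, each above its *Pou5f1*-only values (log2 fold changes 2.43 and 2.05, edgeR adjusted p = 0.0763 and 0.0565).

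Compared directly, *Hand1*+ and *Kdr*+ cells of the 4 embryos had their largest fold change among the members in *Id2*, at 64.4, 39.5, 57.8 and 125.999 CPM in *Hand1*+ cells against 1.27 to 7.36 CPM in *Kdr*+ cells. The log2 fold change was 4.06 (SE 0.43, edgeR adjusted p = 0.166). This comparison was added after the data were seen. edgeR called 0 members in either direction, with 0.00765% of 13068 genes called higher (*Hand1* itself) and 0% lower. At an unadjusted p under 0.05 edgeR had 5 members higher (*Bmp4*, *Id1*, *Id2*, *Msx1* and *Msx2*) and 0 lower, beside 4.2% and 2.6% of all genes. DESeq2 called *Id1*, *Id2*, *Msx1* and *Msx2* higher and 0 lower, beside 0.742% and 0.191% of all genes. The 5 members *Bmp4*, *Id1*, *Id2*, *Msx1* and *Msx2* lay above without overlap and 0 below, beside 3.6% and 1.03% of all genes. *Id1* was at 187.3, 192.8, 183.7 and 131.6 CPM in *Hand1*+ cells against 59.1, 116.8, 33.3 and 75.4 CPM in *Kdr*+ cells, with no overlap (1.33, SE 0.30, edgeR adjusted p = 0.547).

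*Elf5*+ cells could be set beside *Pou5f1*-only cells of the same animal only in embryo 4 (50 and 13 cells) and embryo 5 (35 and 11 cells). Tests were set to need at least 3 embryos with both classes, so none was run here. In its droplet data from such chimaeras the paper found no injected cells in the extra-embryonic ectoderm. The *Elf5*+ cells may thus all be host cells, while *Pou5f1*-only cells can be of either genotype, so class and genotype cannot be told apart in this comparison. Differences are log2 ratios of CPM with 1 CPM added. In both embryos *Bmp4* (91.3 against 0.138 CPM and 103.97 against 4.11 CPM) and *Id2* (1417 against 63.8 CPM and 1741 against 47.3 CPM) were past 2-fold higher on that scale. *Bmp2* (0.0600 against 14.8 CPM and 0.998 against 3.55 CPM) and *Id3* (20.1 against 312.2 CPM and 24.6 against 292.4 CPM) were past 2-fold lower. The *Bmp4* value in *Pou5f1*-only cells of embryo 4 rests on 1 read and the *Bmp2* value in its *Elf5*+ cells on 2. That is 2 higher and 2 lower of the 9 members with at least 10 CPM, where 7.55% of 10325 genes were higher and 11.8% lower by the same rule. *Smad7*, *Smad6* and *Msx2* were higher in both embryos without reaching 2-fold in both, and *Smad7* in embryo 4 was at 54.9 against 4.28 CPM. *Msx1* was at 1.02 against 2.90 CPM in embryo 4 and 1.05 against 36.1 CPM in embryo 5.

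The share of cells with a read showed that levels and cell numbers did not always go together. Each cell was first thinned to 100000 reads, and intervals are exact binomial. *Bmp4* was detected in 71.8% of *Hand1*+ cells (65.8 to 77.4%), 70.1% of *Elf5*+ cells (59.96 to 78.98%), 29.2% of *Kdr*+ cells and 10.9% of *Pou5f1*-only cells at E7.5. Without thinning the shares were 75.5%, 73.2%, 38.3% and 17.1%, with median depths of 807321, 561943, 830058 and 658170 reads. In the erythroid-like cells it was 0 of 47 cells, which allows a share of up to 6.38%. *Id3* was detected in 97.1% of *Hand1*+, 91.1% of *Pou5f1*-only and 39.2% of *Elf5*+ cells, *Id2* in 98.97% of *Elf5*+ and 33.3% of *Kdr*+ cells, and *Msx1* in 89.4% of *Hand1*+ and 7.22% of *Elf5*+ cells. At E7.5, 45 of the 47 erythroid-like cells came from lane plate 1, which held 0 *Elf5*+ and 1 *Pou5f1*-only cells. Their reads therefore cannot measure free RNA on the plates of those classes. Whether erythroid-like cells express these genes was not tested. In them *Smad7* was found in 21.3%, *Bmp2* in 17.02%, and *Id1* and *Msx1* each in 10.6%, at a median of 1048860 reads. The 12.8% of *Pou5f1*-only and 2.06% of *Elf5*+ cells with *Bmp2* and the 7.22% of *Elf5*+ cells with *Msx1* lie below the erythroid-like share. This does not decide whether those reads are expression. At E8.5 the erythroid-like cells (median 686308 reads) had *Id3* in 6.13%, *Id1* in 34.4%, *Smad7* in 28.8%, *Bmp2* in 28.2% and *Smad6* and *Msx1* each in 14.7%. The E8.5 *Kdr*+ shares (median 507629 reads) of *Smad7* (13.6%), *Bmp2* (22.997%), *Smad6* (13.9%) and *Msx1* (12.9%) were below these.

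**Figure D4:**
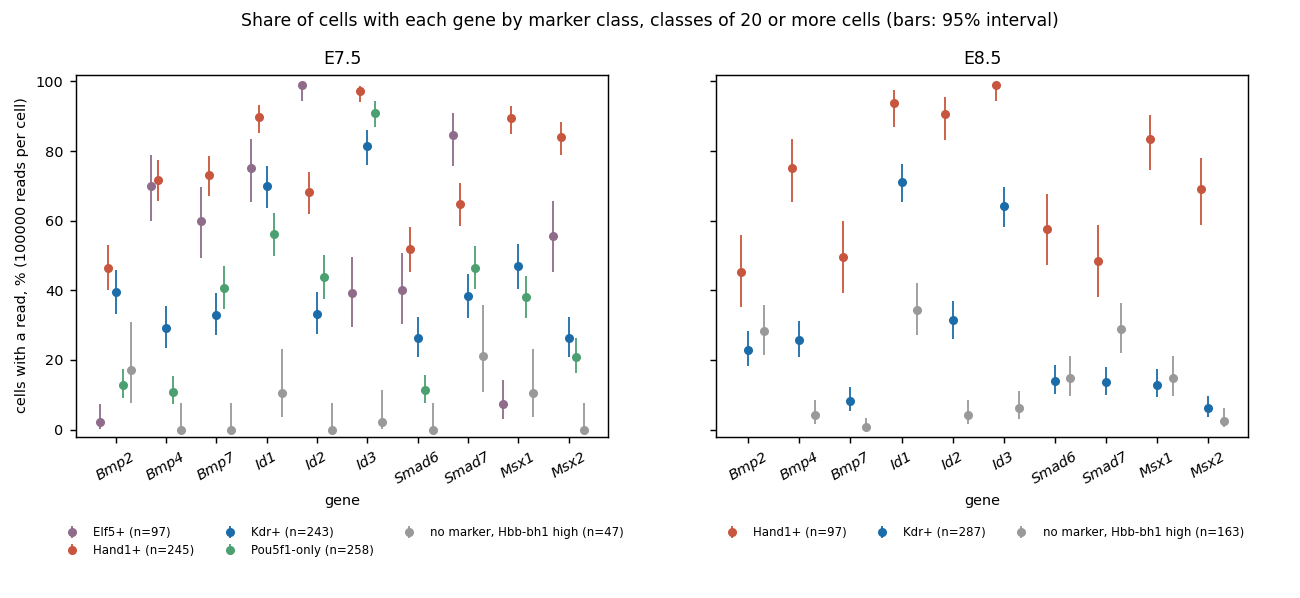
Percentage of cells with at least 1 read of each of the 10 genes after thinning to 100000 reads per cell, in classes of 20 or more cells at E7.5 (left) and E8.5 (right); points are shares, vertical lines are exact 95% binomial intervals, and grey points are the erythroid-like cells. *Bmp4* is found in 71.8% of *Hand1*+ and 70.1% of *Elf5*+ cells at E7.5 against 10.9% of *Pou5f1*-only cells, and *Msx1* in 89.4% of *Hand1*+ against 7.22% of *Elf5*+ cells.

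A *Hand1*+ cell held a median of 8 of the 10 members at E7.5 and 7 at E8.5, a *Kdr*+ cell 4 and 3, an *Elf5*+ cell 5 and a *Pou5f1*-only cell 4 at E7.5. Of the E7.5 cells, 51.2% of *Pou5f1*-only cells had no read of any of the 3 ligands, against 7.35% of *Hand1*+ cells, and 3.49% of *Pou5f1*-only cells had no read of any response gene. The response set has 7 genes and the ligand set 3, and *Id3* alone was read in 91.1% of *Pou5f1*-only cells, so the shares of the sets are not compared.

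Pairs of members were found together in the same cells slightly more often than their shares within each plate and class give. At E7.5 the ratio was above 1 in 43 of 45 pairs (0.984 to 1.19, median 1.07) and at E8.5 in 42 of 45 pairs (0.968 to 1.30, median 1.08). The highest E7.5 ratio was that of *Bmp4* and *Smad6*, found together in 17.99% of cells, which is 49.1% of the cells with *Bmp4* and 64.4% of those with *Smad6*. *Msx1* and *Msx2* came next at 1.18 (32.4% of cells) and were the highest pair at E8.5 at 1.30 (16.2% of cells). *Bmp2* and *Id2* were the lowest pair at both stages. These ratios are a description, since cells of a plate are not independent. The ratio was not computed for pairs of other genes. Whether ratios above 1 are particular to the members was thus not tested. The classes also pool unlike cells, such as *Hand1*+ cells with and without *Kdr*, or erythroid-like and *Ttr*-high cells with no marker. The part of this pooling in the ratios was not tested.

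Within a class, cells with a thinned *Bmp4* read were set beside those without. Among E7.5 *Hand1*+ cells (71.8% with, 69 cells without), *Msx2* was at 176.8 against 56.7 CPM, *Smad6* at 20.8 against 8.82 CPM and *Id2* at 139.2 against 56.8 CPM, while *Id1* was at 144.7 against 174.3 CPM. Among the 28 *Pou5f1*-only cells with *Bmp4*, *Id1* was at 315.2 against 84.1 CPM and *Msx1* at 100.1 against 25.6 CPM, while *Smad6* was at 2.47 against 2.82 CPM. *Elf5*+ cells differed from these, with *Id3* at 36.1 CPM in the 68 with *Bmp4* and 96.7 CPM in the 29 without, and *Smad7* at 56.7 against 30.96 CPM. At E8.5 the gap in *Hand1*+ cells (73 with, 24 without) was largest for *Msx1*, at 331.02 against 84.96 CPM. The cells come from several plates and were not tested as replicates. *Bmp4* in *Pou5f1*-only cells was uneven over plates. As log2(CPM + 1) it was at 5.34 on lane plate 4 and next highest at 2.68 on the chimera plate. The part of the plates in these gaps was not tested.

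The levels at E8.5 were set beside those at E7.5 as pooled CPM, with plates as the spread. Over all cells, 0 of 9 members with at least 10 CPM at either stage were 2-fold higher at E8.5 and 2 were 2-fold lower: *Smad7* went from 18.5 to 7.03 CPM (log2 ratio -1.28) and *Msx2* from 57.02 to 26.6 CPM (-1.07). Of all 9887 genes, 7.02% were 2-fold higher and 8.21% lower. No member's E8.5 plates all lay above or below its E7.5 plates, a separation seen in 0.394% of genes upwards and 1.44% downwards. The SD between plates on the log2 scale was 0.90 for *Smad7* and 2.04 for *Msx2*. *Msx2* fell short of 2-fold with plates weighted equally or without the chimera plate, lane plate 3 or E8.5 plates 1, 2, 3, 5 or 6, and reached -2.09 without E8.5 plate 8, while *Bmp7* passed 2-fold without E8.5 plate 7 or 8 (-1.09 each).

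The change between stages depended on the class compared. Within *Hand1*+ cells (10 E7.5 and 4 E8.5 plates), *Id2* alone was 2-fold higher at E8.5, at 118.7 and 317.7 CPM (log2 ratio 1.41), and no member was 2-fold lower, 1 and 0 of 10, where 11.5% of genes were higher and 7.63% lower. *Id1* went from 152.06 to 300.7 CPM (0.98), *Id3* from 482.1 to 882.6 CPM (0.87) and *Bmp4* from 150.9 to 237.9 CPM (0.65), each with overlapping plates. In the *Kdr*+ class 5 of 9 members were 2-fold lower and 0 higher, where 9.58% of genes were lower and 7.37% higher. They were *Bmp2* (30.9 to 14.6 CPM), *Bmp7* (23.2 to 5.12 CPM), *Smad7* (11.7 to 3.33 CPM), *Msx1* (62.9 to 16.6 CPM) and *Msx2* (26.7 to 5.07 CPM), while *Id1*, *Id2* and *Id3* had log2 ratios of 0.16, 0.77 and 0.25. The plates of the stages overlapped in all 5, and the SD between plates was close to the ratio or above it for *Bmp2* (1.17 beside -1.03), *Bmp7* (2.13 beside -1.98), *Msx1* (1.996 beside -1.86) and *Msx2* (2.16 beside -2.19), and below it for *Smad7* (1.13 beside -1.55). The median log2 ratio of the members was -1.03 in *Kdr*+ and 0.54 in *Hand1*+ cells, beside 0.148 and 0.123 for all genes.

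Cell makeup moved with the stage within both classes. In *Kdr*+ cells the visceral endoderm markers (5 of 5 at 10 CPM or more at E8.5) summed to 43.3 CPM at E7.5 and 348.6 CPM at E8.5, and the erythroid markers to 2911 and 2372 CPM. In *Hand1*+ cells the cardiac markers summed to 69.4 and 341.9 CPM, with 2 and 3 of 4 at 10 CPM or more and *Nkx2-5* below that at both stages, and the surface ectoderm markers to 354.6 and 907.3 CPM (1 and 3 of 4), mostly *Krt18*. The *Pou5f1*-only markers went from 235.5 CPM (5 of 5) to 22.8 CPM (0 of 5) in *Hand1*+ cells and from 137.8 CPM (3 of 5) to 11.7 CPM (0 of 5) in *Kdr*+ cells. The part of these cells in the stage ratios was not tested. Stage, animal and plate cannot be told apart here.

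**Figure D5:**
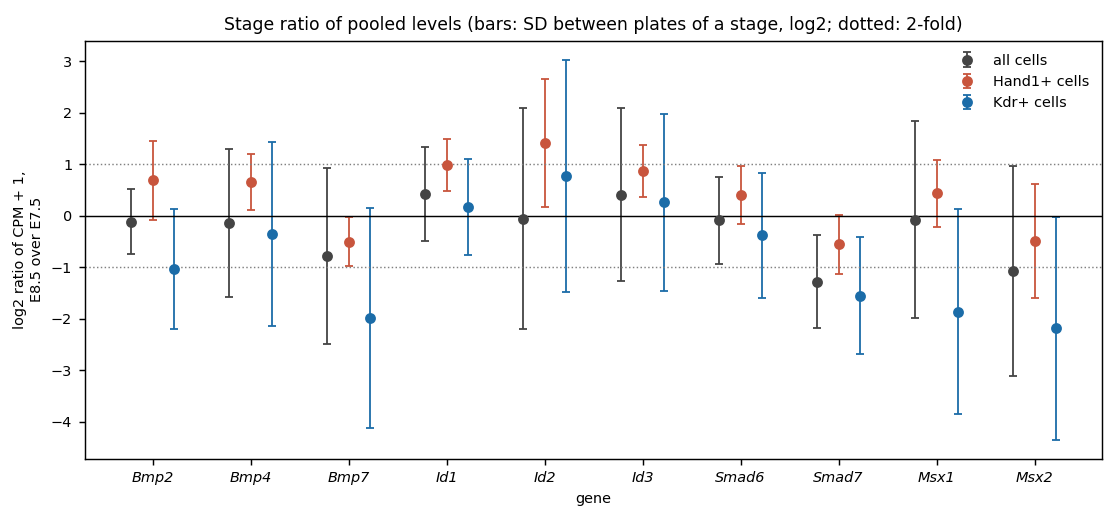
Log2 ratio of E8.5 over E7.5 pooled CPM (1 CPM added) for each of the 10 genes in all cells, *Hand1*+ cells and *Kdr*+ cells; bars are the SD between plates of a stage on the log2 scale, and dotted lines mark 2-fold. In *Kdr*+ cells *Msx2* is lowest at -2.19, in *Hand1*+ cells *Id2* is highest at 1.41, and in all cells *Smad7* and *Msx2* lie past the lower line.

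A list of 35 other genes of the pathway was read in the same fits. In *Hand1*+ over *Pou5f1*-only cells 28 were tested and 1 was called higher and 0 lower by edgeR, with 12 higher and 3 lower at an unadjusted p under 0.05, and 9 higher and 3 lower by DESeq2, beside 9.32% and 9.51% of all genes by the first count and 3.18% and 4.06% by the second. The called gene was *Bambi*, a pseudoreceptor that damps BMP signals, at 138.5, 139.1, 124.07 and 145.7 CPM against 33.9, 15.3, 23.1 and 39.4 CPM (log2 fold change 2.38, SE 0.24, edgeR adjusted p = 0.00759). *Bambi* was called in 10 of 15 alternatives, at log2 fold changes of 1.88 to 2.53. It lost the call when any 1 embryo was left out and with markers positive at 1 read. The cardiac and allantoic T-box gene *Tbx20* was at 113.1, 105.4, 168.5 and 105.5 CPM against 7.51, 5.25, 0 and 1.87 CPM (adjusted p = 0.0258). *Smad1*, a transducer of the signal, was at 87.9, 96.5, 75.2 and 71.5 CPM against 49.3, 42.7, 32.7 and 25.4 CPM, with no overlap (log2 fold change 1.17, adjusted p = 0.0184). In *Kdr*+ over *Pou5f1*-only cells 23 were tested and edgeR called 0, with 6 higher and 3 lower at an unadjusted p under 0.05, and 4 higher and 1 lower by DESeq2, beside 5.68% and 8.16% of all genes by the first count and 1.59% and 3.44% by the second.

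In the 2 embryos with *Elf5*+ cells, 7 of 22 pathway genes with at least 10 CPM were 2-fold higher than in *Pou5f1*-only cells in both embryos and 3 were 2-fold lower. By the same rule, 7.55% of all 10325 genes were higher and 11.8% lower. *Bmp8b*, a ligand of the extra-embryonic ectoderm, was at 165.7 and 141.5 CPM in *Elf5*+ cells of embryos 4 and 5, and *Gata3*, a trophoblast zinc-finger factor, at 78.1 and 85.1 CPM against 6.91 and 5.80 CPM. The secreted antagonists *Cer1* (0.0300 against 302.2 CPM and 0.277 against 59.8 CPM) and *Chrd* (1.92 against 23.1 CPM and 3.27 against 17.9 CPM) were lower. Between stages, over all cells, 1 of 22 pathway genes was 2-fold higher at E8.5, the endothelial receptor gene *Acvrl1* (16.2 to 39.3 CPM), and 7 were lower, *Bmp5*, *Bmp8b*, *Acvr2a*, *Smad1*, *Fst*, *Cer1* and *Bmper*. Among all 9887 genes, 7.02% were 2-fold higher and 8.21% lower. *Cer1* went from 89.6 to 0.00601 CPM.

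For each member the 3 genes with the most similar level over 43 units of plate and class (log2 of CPM + 1, Pearson's r across 9887 genes, members left out) were found, as a description. *Tbx20* was nearest to *Bmp4* (r = 0.81) and to *Smad6* (0.85). *Wnt5a* (0.90), *Bmp5* (0.88) and *Cdh11* (0.87) were nearest to *Msx1*, and *Spin2c*, *Tbx3* and *Phlda2* (each 0.83) to *Msx2*. *Tcf7* and *Axin2* (both 0.86) were nearest to *Bmp7*, *Mum1l1* (0.81) to *Bmp2*, *Fbln1* (0.87) to *Id1*, *Mpped2* (0.81) to *Id2*, and *Dbn1*, *Mdk* and *Fstl1* (each 0.88) to *Id3*. *Smad7* had the weakest neighbour, *Tcf20* at 0.66. The units share plates and depth, so no p is given.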

How the data were processed

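RNA of single cells was measured by Smart-seq2. The values deposited by the authors are raw read counts for each gene in each cell, made per the submitters' processing notes with HISAT2 2.1.0 and featureCounts on GRCm38, and the strand setting of the counting is not given in the sources used here. Gene symbols, positions and exon lengths came from GENCODE M21. Columns left without a sample numbered 0, 1 well held no reads, and no 2 other cells had identical counts. Cells with at least 100000 reads were kept. No doublet caller was run, and the sorts had gated singlets. The 10 genes, the pathway and marker lists and the tests were chosen with earlier results of these data known. All members are named, and nearest genes are the 3 with the highest r.

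Counts summed per class and embryo (at least 5 cells of each class) were tested in R 4.3.3 with edgeR 4.0.16 (filterByExpr, TMM, embryo as block, Benjamini-Hochberg adjustment), and with DESeq2 1.42.0 as an alternative, after edgeR had been tested on simulated data. The embryo is the pairing because both classes came from the same animal. The correlation of same-embryo deviations was 0.0182 to 0.119, beside 0.00552 to 0.0664 for the highest correlation with another embryo. The same-embryo value was the lower for embryo 5 in both comparisons with *Pou5f1*-only cells and for embryo 2 in the *Kdr*+ one. The pairing is thus weak in these data. Stages were compared without a test. Alternatives were normalization, low-count filter, block, marker threshold, depth, quality limits, leaving out each embryo or plate, and leaving out the deepest 2% of cells of each plate, which was added after the data were seen.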

Additional observations from a re-analysis of the deposited data

Results flagged for a closer look

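In 3 of 40 groups of 4 embryos, 1 embryo stood further from the others than Dixon's 95% critical value allows, where chance flags about 1 in 20 groups. In *Pou5f1*-only cells *Bmp7* was at 51.9 CPM in embryo 4, against 28.5 to 29.4 CPM in the other embryos. *Smad7* in the same class and embryo was at 4.28 CPM, against 23.9 to 27.7 CPM in the others, and that class held 13 cells in embryo 4. In *Hand1*+ cells *Id1* was at 131.6 CPM in embryo 5, against 183.7 to 192.8 CPM.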

How the results depend on the processing

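The log2 fold changes of the 10 members in *Hand1*+ over *Pou5f1*-only cells kept their direction under all alternatives run. The share of tested genes called there, 0.736%, became 2.05% with no replicate block, 0.983% with no filter on low counts (more genes tested), 7.24% with DESeq2, 0.384% with markers positive at 1 read, and 0.0796% to 0.266% when 1 embryo was left out. In *Kdr*+ over *Pou5f1*-only cells the share of 0.0234% (3 genes) became 0.381% with no replicate block, 0.190% with no filter, 5.03% with DESeq2, 0.628% with markers at 50 CPM, 0.0713% without the 2% of cells with most reads, and 0 with markers at 1 read or without any 1 embryo. The 1 gene called in *Hand1*+ over *Kdr*+ cells (0.00765%) became 0.934% of genes with DESeq2 and 0 with markers at 1 read or 50 CPM, and stayed 1 gene with no replicate block or without any 1 embryo. A minimum of 10 cells per class left too few embryos for either *Kdr*+ comparison.

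Directions turned for small differences. In *Kdr*+ over *Pou5f1*-only cells *Id1* became 0.0689 without embryo 4 (range without 1 embryo -0.70 to 0.07) and 0.0231 with markers at 1 read, *Id3* -0.0364 without embryo 5 (to 0.45) and -0.18 with markers at 1 read, and *Smad7* -0.62 without embryo 4 and -0.0058 without embryo 5 (to 0.88). In *Hand1*+ over *Kdr*+ cells *Bmp2* became 0.55 and 0.32 without embryos 4 and 5 (from -0.68) and 1.90 with markers at 1 read, *Bmp7* 0.0085 with markers at 1 read, *Id3* -0.0466 without embryo 1 (to 0.68) and -0.0214 with markers at 50 CPM, and *Smad7* -0.0560 without embryo 1 (to 0.72). Of members past 2-fold between stages, 2 became 1 with plates weighted equally, and 1 to 3 when 1 plate was left out. The cause of these changes was not tested.

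The limits are 4 embryos with few cells in some classes (6 to 16 *Kdr*+ cells), unknown genotype of single cells, and no animal names at E8.5.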
